A study of Mus musculus with 2 samples.

Results

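The transcript models described here are spliced models that lack the first exon or exons of an annotated transcript of their gene and keep its remaining introns to the 3' end. They were selected by the deposited class of incomplete splice match of the suffix subtype, by at least 5 reads in each of 2 libraries and by an identical intron chain in both, with the gene Hsd3b1 left out. This gave 489 models in 339 genes, 336 of them protein-coding, out of 65815 models with reads in replicate 1 and 99180 in replicate 2. Models of the same subtype with any number of reads were 10447 and 16173. Total RNA of adrenal glands was sequenced as long reads; the mice were untreated females of the B6CASTF1/J strain, 25 days old, whose parents are C57BL/6J and CAST/EiJ. They form 1 group of biological replicates 1 and 2, so no condition was compared. The library descriptions name the same animal for both and the tissue descriptions name a different animal for each, so the spread between the libraries may be technical.

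A gene can be transcribed from more than 1 promoter, and a transcript that begins downstream of the usual first exon can carry another 5' untranslated region or encode a protein without its first residues. Shortened molecules of the same appearance also arise when RNA breaks or when reverse transcriptase stops before the 5' end, and a sequenced cDNA does not carry a record of which it was. In the adrenal cortex the steroid-producing cells express a small number of genes at very high levels, among them the mitochondrial cholesterol carrier Star and the cytochromes of steroid synthesis, and the medulla holds chromaffin cells that store catecholamines with chromogranins.

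Where a model begins is shown first by sequence. Its host is the annotated transcript (GENCODE M21, mm10) whose intron chain ends with the model's chain. Where several fit, the one with the most reads was used. The 8 models below are among the 10 with the highest smaller count whose starts lay within 10 bases of each other in both libraries. Each run gives the spliced host transcript, 15 bases before the start in lower case and the first 15 bases of the model in capitals.

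Dhcr7 8-exon model: gaacactgctggagaGCGTGGATCAGCCGC
Akr1c18 5-exon model: tgtgacacatgggagGCCATGGAGAAGTGT
Ndufa4 2-exon model: taatccagatgtcagCTGGGACAGAAAGAA
Star 4-exon model: aaggaaagccagcagGAGAACGGGGACGAA
Atp5b 2-exon model: actgtgtcccgggcaAGAAAGATACAGCGC
Ndufa13 4-exon model: ggctcacgaaagaaaGGAACCTCCTGGGTG
Hao2 5-exon model: agagcacagctaaagCTGCTCAGAAGGCCA
Atp5j 4-exon model: cggcggcggtgactcTGGCAGCTCGGGACT

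For 5 of these 8 models the first base was the first base of a host exon, so that the lower-case bases come from the preceding exon, which the model lacks. These were Akr1c18 at exon 5, Ndufa4 at exon 3, Star at exon 4, Ndufa13 at exon 2 and Hao2 at exon 5. The Dhcr7, Atp5b and Atp5j models began inside a host exon, 95, 84 and 151 bases after its first base. The Dhcr7, Ndufa13 and Atp5j models began in the annotated 5' untranslated region of the host, and the other 5 began in its coding region. Positions in mm10 were 143830234 on chromosome 7 for Dhcr7, 25810945 on chromosome 8 for Star and 4142249 on chromosome 13 for Akr1c18, the last on the minus strand.

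Other models began at or close to a start that a second annotation, RefSeq, gives for the same gene. A RefSeq start (GRCm38.p6) was found for the genes of 365 of the 489 models, and 29 of those began within 50 bases of one in both libraries (7.95%). In most of the 29 the first exon reached through the whole intron into the host's preceding exon, which counts as missing. For most of these the gene had 1 RefSeq start, as for Hcfc1r1, Atp6v0b and S100a13 below. Dhcr7, Ctsa, Prkar1a and Sh2b1 began inside a host exon, and Banf1, Maged2 and Ak1 in the preceding intron. The runs below show RefSeq sequence for 6 of the 29 models, with 15 bases on each side of the start and the model's first bases in capitals. They are those with the highest smaller count that were not already shown and whose RefSeq window holds 15 bases from the start on, which leaves out Hnrnpf and Rpl6. The last run is a longer upstream window for S100a13.

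Ctsa chr2:164833792-164833821 (plus strand): tacacatgacttccaGTCCAAAGGCGCCTC
Prkar1a chr11:109650560-109650589 (plus strand): ggaaccgaggagaggCTGAGATCTCCGAAC
Banf1 chr19:5366349-5366378 (minus strand): ctcagggcggggcctGCGGGACCTGAGAGG
Hcfc1r1 chr17:23673593-23673622 (plus strand): aatctctcgacgcacGACACAACCTCTCGA
Atp6v0b chr4:117887306-117887335 (minus strand): tcaggtggcgctgcgGGGCGGGCCGACAGA
S100a13 chr3:90514420-90514449 (plus strand): tttctttccgttcttGCTTGCACCACCTCC
S100a13 chr3:90514185-90514464 (plus strand): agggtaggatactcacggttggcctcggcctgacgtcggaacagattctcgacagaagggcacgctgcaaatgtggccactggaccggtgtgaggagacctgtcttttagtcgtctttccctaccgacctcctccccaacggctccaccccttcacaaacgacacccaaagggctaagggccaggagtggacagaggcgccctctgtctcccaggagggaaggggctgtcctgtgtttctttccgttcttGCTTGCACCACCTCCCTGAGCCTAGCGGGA

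Banf1, Hcfc1r1 and S100a13 began on the RefSeq base itself, and Ctsa, Prkar1a and Atp6v0b began 34, 33 and 9 bases from it. The RefSeq windows of the 29 models, 250 bases before to 50 bases after the RefSeq start, held a median of 20 CG dinucleotides, against 7 in all 32851 RefSeq windows, and their median GC content was 59.7% against 52.7%. TATAAA on either strand was found in 1 of the 29 windows, that of Oaz1 (3.45%), and in 13.6% of all windows. The 32851 windows were not limited to genes with reads here, and windows of genes with like read depth were not compared. Whether the contrast belongs to the shortened models or to well-read genes was not tested.

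In the library of replicate 1 the 489 models held 9236 reads, which is 2.33% (95% Wilson interval 2.28% to 2.37%) of the 397176 reads assigned to annotated genes. For replicate 2 they held 15172 reads, or 2.13% (2.10% to 2.16%) of 712032. They accounted for 35.1% and 32.1% of all reads on suffix models. Of all suffix models, 73.8% and 69.1% had 1 read only. Counts per model ran from 5 to 401 with a median of 9 in replicate 1, and from 5 to 688 with a median of 13 in replicate 2. Counts and their threshold chose the models and are a description. Just outside the threshold were 163 models with a smaller count of 4, such as 1700017B05Rik with 4 and 8 reads, 2410002F23Rik with 4 and 6, and the 3-exon model of Abcb1b with 4 and 4. Just inside were 103 with a smaller count of 5, such as 4933417D19Rik with 5 and 7 reads, the 15-exon model of Abcb1b with 5 and 6, and Abhd4 with 5 and 14. The labelled tissue carried its markers: Cyp11a1 had 11136 and 17191 reads and Th, the first enzyme of catecholamine synthesis, 842 and 1206. The kidney markers Umod, Kap, Slc12a1 and Slc34a1 had 0 reads in either library, which allows up to 3 reads each. Liver RNA differed between the libraries, with Alb at 32 and 1 reads, Apoa1 at 23 and 0 and Ttr at 15 and 0; its part in the results was not tested. In whole-gland RNA, fewer cells of a type and less RNA per cell cannot be told apart.

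**Figure D1:**
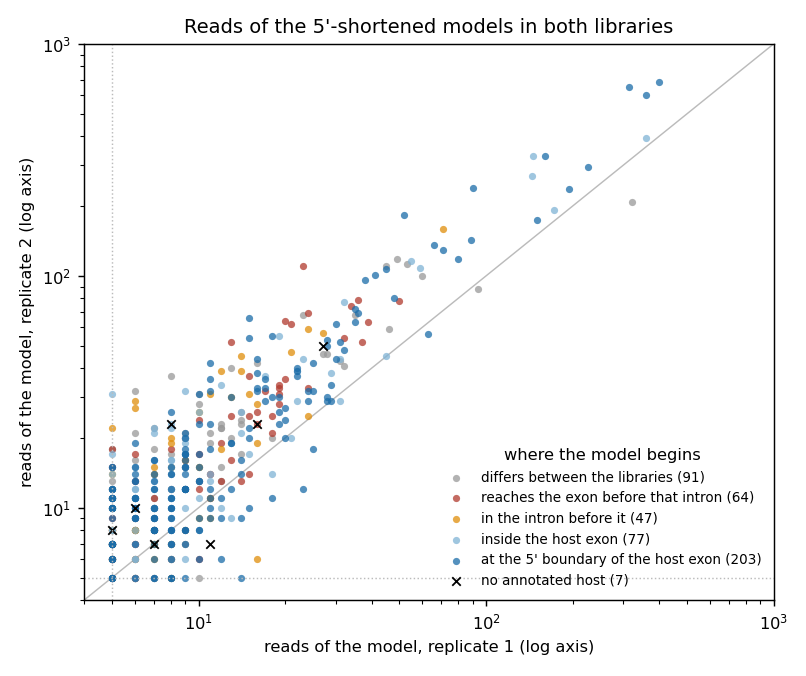
Reads of each of the 489 models in replicate 1 (x axis) and replicate 2 (y axis), both on log axes, coloured by where the model begins against its most read annotated host; crosses are the 7 models with no annotated host, dotted lines the 5 reads that chose the models and the grey line equal counts. Most points lie above the grey line, as replicate 2 has more reads, and of the 10 models with the highest smaller count all but the 6-exon model of Cyp11a1 begin at a host exon boundary or inside a host exon in both libraries.

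An annotated host was found for 482 models. The other 7 continue a chain that the annotation does not hold as a whole: 3 models of Cyp21a1 and 1 each of Cyp11a1, Acbd4, Dcaf11 and Slc25a14. Against the host with the most reads, 196 models lacked 1 exon (40.7%), 63 lacked 2 (13.1%), 151 lacked 5 or more (31.3%) and 47 lacked 10 or more. The median was 2 exons and 444.5 spliced bases, and the model had a median of 5 exons. Col5a3, a fibrillar collagen chain, lacked 50 of 67 exons with 6 and 10 reads. Fasn, fatty acid synthase, had models that lacked 39, 33 and 32 of 43 exons, with 6 and 7, 10 and 13, and 5 and 7 reads. The complement genes C4b and C4a lacked 35 of 41 and 34 of 40 exons, with 36 and 69 reads and with 35 and 72. C4a and C4b are near-identical copies, and their counts are uncertain where reads could fit either gene. Cdk5rap2, a centrosomal protein, and Cdc42bpb, a kinase, each lacked 29 of 37 exons. Cdk5rap2 had 11 of the gene's 14 reads in replicate 1 and 31 of 43 in replicate 2, and Cdc42bpb had 5 of 14 and 5 of 15. In the models of Col5a3, Fasn, C4a and C4b the start was the first base of a host exon in both libraries.

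Against the exon of the host in which the chain begins, 203 of the 482 models (42.1%) started exactly at its first base in both libraries and 77 (16%) started inside it. A further 125 (25.9%) started before it. Of these, 47 started in the preceding intron, 64 reached through the whole intron into the host's preceding exon, and 14 did one in one library and the other in the other. With these 14, the position differed in kind between the libraries for 91 models (18.9%). In these 64 models the first exon covers the intron before the host exon, so that the exon before that intron counts as missing although the model covers at least part of it. By the count, 39 of the 64 lacked 1 exon and 13 lacked 5 or more. Their median length was 1570 bases in replicate 1, whereas that of their hosts was 1348. Of the 482 models, 18 began at the very start of a host.

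**Figure D2:**
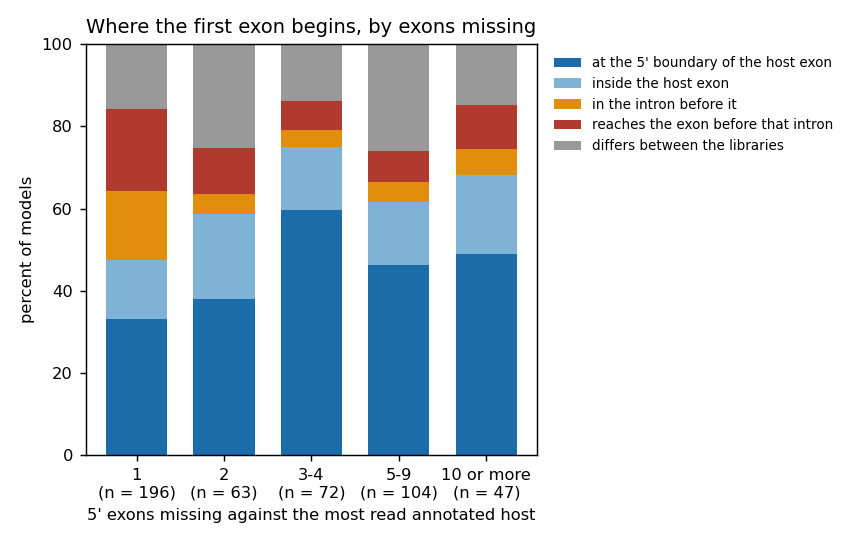
Percent of models (y axis) by where the first exon begins relative to the host exon, in bins of the number of 5' exons missing (x axis, with the number of models). Starts in the preceding intron or preceding exon make up 33 and 39 of the 196 models that lack 1 exon, and starts at the host exon boundary are 43 of the 72 models that lack 3 or 4.

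The 10 models that reached farthest before the host exon, with starts within 50 bases of each other, were the following. Rps15, a small-subunit ribosomal protein, had a 2-exon model with 18 of the gene's 161 reads in replicate 1 and 21 of 294 in replicate 2 that reached 1189 bases before the host exon, through an intron of the host. Fth1, the ferritin heavy chain, had 13 of 1107 and 16 of 2210 reads on a model that reached 1856 bases before it. Oaz1, an inhibitor of polyamine synthesis, had 5 of 766 and 5 of 1505 reads and reached 1775 bases. Pgls, of the pentose phosphate pathway, had 5 and 8 reads and reached 1900 and 1908 bases. Ddrgk1, a regulator of protein UFMylation, had 11 and 11 reads and reached 2470 bases. Rpl18 had 9 and 20 reads and reached 1141 bases, and Eif4a1, an RNA helicase of translation initiation, had 6 and 9 reads and reached 1339 and 1340. Il10rb, an interleukin receptor chain, reached 1454 bases with 11 and 14 reads. The farthest was Akt1s1, a regulator of mTOR complex activity, which began 2564 bases before the host exon in both libraries with 6 and 27 reads, within the preceding intron of its most read host. The 4-exon model of Chga began 1988 and 1968 bases before it, with 7 and 10 reads, and reached the preceding exon in 1 library only. In replicate 1 the models of Rps15, Oaz1, Pgls, Ddrgk1 and Rpl18 began 22, 30, 0, 14 and 41 bases from a RefSeq start. It was the only RefSeq start of each gene, and the first exon of each model reached the preceding host exon. By the count, Rps15, Oaz1 and Ddrgk1 lacked 2 exons, and Pgls and Rpl18 lacked 1.

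The positions of the starts were compared with every exon and transcript end of the gene in the annotation. In replicate 1, 460 of 489 starts (94.1%) fell exactly on an annotated position, and in replicate 2, 457 (93.5%). The start was the start of an annotated transcript of the gene in both libraries for 171 models (35.0%) and the 5' boundary of a host exon for 202 (41.3%). It was the end of an annotated exon for 20 models, another annotated exon start for 3 and no annotated position for 11. For 82 models (16.8%) the kind differed between the libraries. The models in the deposited files thus have starts that coincide with the annotation to the base, and how far the ends of the reads lay from these positions is not recorded in the tables used here; it was not tested.

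Start agreement has to be read against that. The start was identical in both libraries for 359 models (73.4%), within 50 bases for 393 (80.4%) and more than 500 bases apart for 48, with a largest difference of 4941 bases. Over all matched suffix models with a smaller count of 1 read, 2309 of 3122 starts (74.0%, 95% Wilson interval 72.4% to 75.5%) were identical. With a smaller count of 50 or more it was 21 of 26 (80.8%, 62.1% to 91.5%), and these intervals overlap. They take models as independent, although some come from the same gene and all from the same 2 libraries, so they are a description only. Of the 11 models whose start was on no annotated position in either library, 5 had the same start to the base: Akr1c18 (the 8-exon model, 15 and 17 reads), Gm45713 (10 and 9), Itm2c (9 and 20), Rps25 (9 and 10) and Psmb5 (7 and 10), the last a catalytic subunit of the proteasome. The other 6 differed by 158 to 2677 bases. With the same count rule, the start was identical in 75.4% of 61 prefix models, which lack 3' exons, in 67.9% of 374 unannotated combinations of annotated splice sites and in 73.4% of 143 models with an unannotated splice site. Starts within 50 bases were more frequent in these classes, at 88.5%, 92.5% and 90.2%, than the 80.4% of the suffix models. Those 3 classes differ from the suffix models in another respect: their start was an annotated transcript start in 98.4%, 98.1% and 83.9%. The 3' end was identical in both libraries for 377 suffix models (77.1%). Annotated transcripts are listed with their annotated ends and were identical in all 6610 cases, which carries no information.

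**Figure D3:**
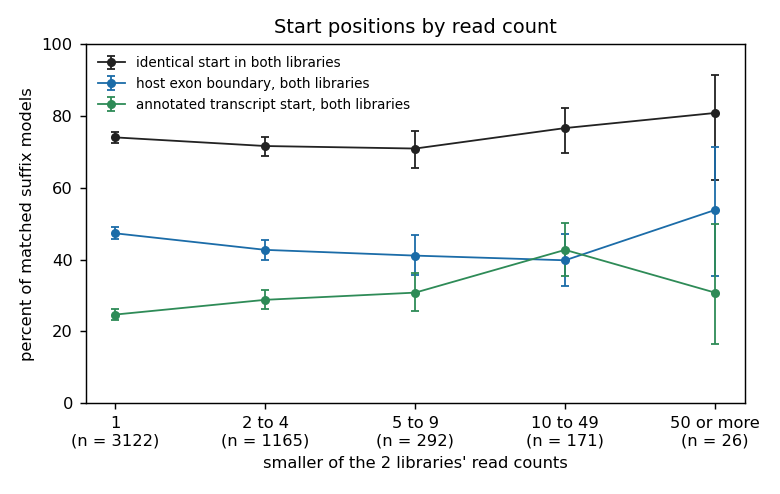
Percent of matched suffix models (y axis, with 95% Wilson intervals) whose start was identical in both libraries, at a host exon boundary in both, or at an annotated transcript start in both, by the smaller of the 2 read counts (x axis, with the number of models). Identical starts lie between 70.9% and 80.8% in every bin, including the bin of 1 read. The intervals take models as independent, although some come from the same gene.

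The models at an annotated start differed in makeup from those at a host exon boundary, as a description of these models. At an annotated start, 104 of 165 with a host lacked 1 exon (63.0%) and the median was 1. At an exon boundary, 62 of 202 lacked 1 exon (30.7%), the median was 3 and 72 lacked 5 or more (35.6%). All 29 models within 50 bases of a RefSeq start were at an annotated start (29 of 129 with a RefSeq entry, 22.5%), and 0 of 150 at an exon boundary were. That allows a share of up to 2% if models, some of them from the same gene, are taken as independent. A start that is also an annotated transcript start is never counted at an exon boundary, so this contrast is partly set by the ranking. The median share of the gene's reads was 8.76% and 7.68% in replicates 1 and 2 at annotated starts and 4.23% and 4.02% at exon boundaries. In 135 models the annotated start was the same base in both libraries. The annotated transcripts beginning there were all of the retained-intron type in 51 of the 135, all processed transcripts in 26, all targets of nonsense-mediated decay in 8 and included a protein-coding transcript in 49. In 107 of the 135 those annotated transcripts had 0 reads in either library, and in 124 the shortened model had more reads than they did in both. The shortened models were chosen by at least 5 reads in each library and the annotated transcripts were not, so the rule itself favours the shortened models here.

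Models that dominate their gene form a small set: 30 held 50% or more of the gene's reads in both libraries, 14 of them in genes with at least 20 reads in each. Of the 29 with a host, 22 lacked 1 exon, 11 began inside a host exon and 10 at its boundary, and 16 of the 27 with a coding host kept its start codon. In 16 of the 30 genes no read was assigned to an annotated transcript in either library.

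Ndufa13, a subunit of complex I, had 160 of its 166 reads in replicate 1 and 330 of 343 in replicate 2 on a 4-exon model that lacks the first of 5 exons, and no annotated-transcript reads. Atp5f1, a subunit of the ATP synthase stalk, had 145 of 147 and 269 of 285 reads on a 7-exon model that began 294 and 312 bases inside the second host exon. Atp5j, coupling factor 6 of the same enzyme, had 146 of 236 and 328 of 513, against 48 and 82 on annotated transcripts. Ethe1, a mitochondrial sulfur dioxygenase, had 18 of 21 and 55 of 56. In each of these 4 genes the model lacked 1 exon and kept the annotated start codon, and its share of the gene's reads was above 60% in both libraries.

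Dhcr7, the reductase of the last step of cholesterol synthesis, had 361 of 521 reads (69.3%, 65.2% to 73.1%) in replicate 1 and 392 of 630 (62.2%, 58.4% to 65.9%) in replicate 2 on its 8-exon model. The intervals of the libraries overlap slightly. Annotated Dhcr7 transcripts had 0 and 1 reads. The model began on the first base of the annotated transcript Dhcr7-209, 20 bases from a RefSeq start, and kept the whole coding region of its host Dhcr7-201. Psmc2, an ATPase of the proteasome, had 66 of 75 and 136 of 143 reads on a 12-exon model with the start codon kept. Ctsa, lysosomal cathepsin A, had 59 of 73 and 108 of 140 on a 15-exon model that kept 99.3% of the coding bases but not the start codon of Ctsa-201. Sdsl, a serine dehydratase-like protein, had 55 of 78 and 116 of 155. Bud23, an rRNA methyltransferase, had 23 of 30 and 44 of 52. Tspan12, a tetraspanin, had 24 of 32 and 59 of 77, and its model began 2 bases before the host exon. Agmat, an agmatinase, is of another form: 28 of 31 and 50 of 54 reads lay on a 3-exon model that lacks 4 of 7 exons and keeps 31.3% of the coding bases. Dhx58, a cytoplasmic RNA sensor, had 16 of 24 and 42 of 51 on a model that lacks 6 of 13 exons, with starts 154 bases apart. S100a13, a calcium-binding protein, had 20 of 24 and 64 of 74 reads on a model that began at the start of its own host and kept its first intron. Cadm1, an adhesion molecule, had 13 of 20 and 30 of 48. In chromaffin cells the vesicular monoamine transporter Slc18a1 had 8 of 11 and 16 of 25 reads on a 16-exon model that keeps the start codon, and 0 on annotated transcripts.

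**Figure D4:**
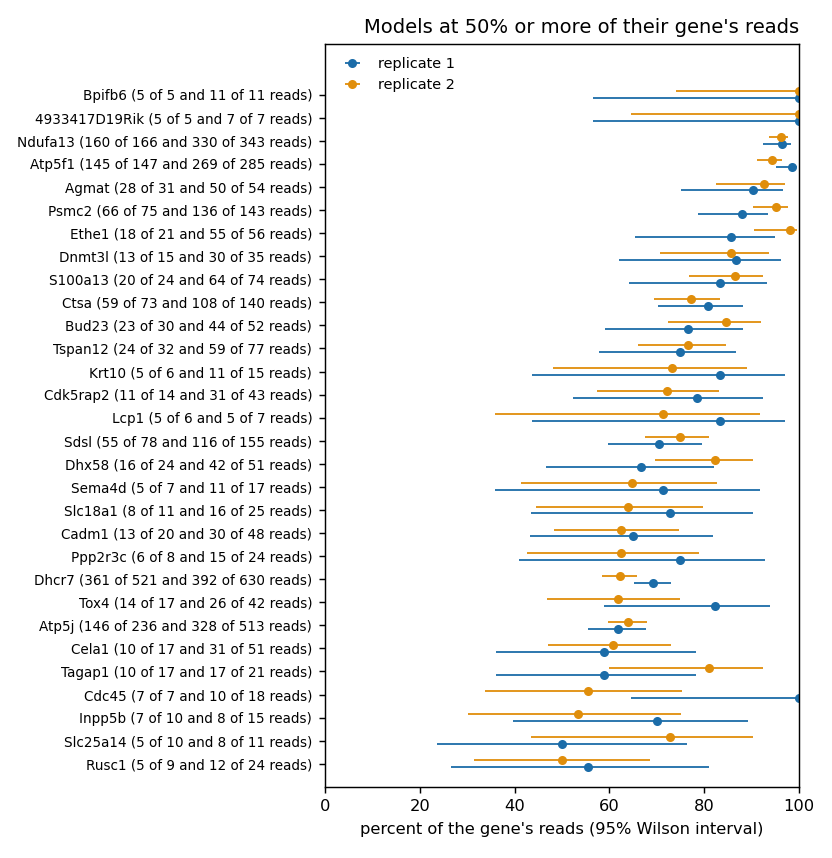
Share of the gene's reads (x axis, percent, with 95% Wilson intervals for counting error) in replicate 1 and replicate 2 for the 30 models at 50% or more in both libraries; each label gives the model's reads of the gene's reads. The intervals of Ndufa13, Atp5f1, Psmc2 and Dhcr7 are narrow, and those of genes with under 20 reads, such as Bpifb6 and Lcp1, are wide.

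Most models were minor products of a well-read gene. The median share of the gene's reads was 5.05% in replicate 1 and 4.72% in replicate 2, with the middle 50% of models between 1.61% and 16.1% and between 1.35% and 14.3%. In 74 models the count exceeded that of all annotated transcripts of the gene in both libraries, although only the models were chosen by a read minimum. A model was found in 310 of 3926 genes with at least 20 reads in each library (7.90%). This depended on depth: 4.12% of genes with 20 to 99 reads in the shallower library carried one, 20.2% with 100 to under 500 and 67.6% with 500 or more, and the median share fell along the same bins, from 18.6% to 4.24% to 0.987% in replicate 1. The 5-read minimum by itself sets a floor on the share that falls with depth.

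Steroid synthesis and cholesterol uptake genes, which are among the deepest here, carried 49 of the models, in 13 of the 26 listed genes with at least 20 reads (50%). Their summed reads were 1878 and 2800, or 4.95% and 4.47% of the list's reads, against 2.33% and 2.13% over all annotated genes. The median share per model was low, at 0.629% and 0.623%. The 4-exon model of Star, which delivers cholesterol to the inner mitochondrial membrane, had 194 of 4612 and 238 of 6329 reads and began at the first base of host exon 4 in both libraries. Akr1c18, which inactivates progesterone, had 359 of 2870 and 602 of 5385 reads on its 5-exon model. That is 12.5% and 11.2% of the gene, while its other 5 models held 0.223% to 0.706%. Akr1cl, a related aldo-keto reductase, had 90 of 952 and 239 of 2709 on a 5-exon model and 52 and 183 on a 2-exon model. Nr5a1, the transcription factor SF-1 that directs the steroid gene program, had 41 of 345 and 101 of 553 reads on a 4-exon model that lacks 3 of 7 exons. Scarb1, the lipoprotein receptor that takes up cholesterol esters, had 5 models between 0.489% and 1.40%. Tspo, the outer-membrane translocator protein, had a 3-exon model with 13 of 233 and 19 of 487 reads that kept the coding region. Fdx1 and Fdxr, which pass electrons to the mitochondrial cytochromes, had 1 and 3 models. Mrap and Akr1b7 had 1 each. Reads of near-identical copies, such as Cyp21a1 with its pseudogene and the Akr1c family, may have been split between genes by the authors' counting.

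In some genes several models form a series of successively shorter ends. Models were alone in 273 genes, and 66 genes had 2 or more, together 216 models. There were 20 genes with 4 or more. Eef2, the elongation factor that moves the ribosome along the mRNA, had 9, which lacked each number of exons from 3 to 11 of 14, all with identical starts and 5 at the first base of the host exon. They summed to 122 of 662 reads (18.4%) and 253 of 1077 (23.5%). Within the series the level was uneven: the 8-exon model had 38 and 96 reads and the 7-exon model 8 and 11. Hsp90ab1, a cytosolic chaperone, had 8 models that summed to 7.64% and 5.64% of its reads. Eef1a1, which brings aminoacyl-tRNA to the ribosome, had 6, for each number of missing exons from 1 to 6, and 17.4% and 20.7%. Cyp11b1, the last enzyme of corticosterone synthesis, had 6 models from 1 to 7 missing exons with 7 to 28 reads in replicate 1 and 14 to 46 in replicate 2. Sparc, a matrix protein, had 6, and Fasn had 5, which lacked 21 to 39 of 43 exons and summed to 32.4% and 33.9%. Star had 5, for each number of missing exons from 1 to 5, with 94 and 88, 23 and 12, 194 and 238, 29 and 34, and 18 and 11 reads. The model lacking 3 exons was the highest of the 5 in both libraries. Other genes were less regular. The start was identical in both libraries for 1 of 7 models of Cyp11a1 and 1 of 5 of Chga. Cyp21a1 had 8 models, 5 of them with a host, 5 with identical starts and 0 at the first base of a host exon.

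**Figure D5:**
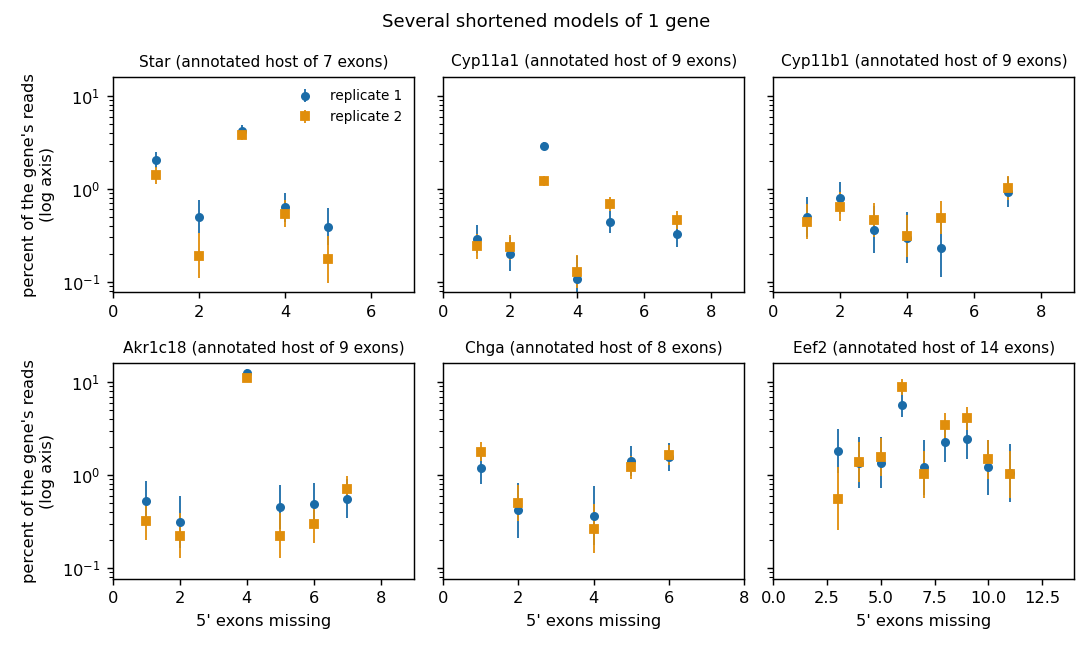
Share of the gene's reads (y axis, percent, log axis, with 95% Wilson intervals) for each model of Star, Cyp11a1, Cyp11b1, Akr1c18, Chga and Eef2 that has an annotated host, by the number of 5' exons missing (x axis); circles are replicate 1 and squares replicate 2. In every plotted gene except Chga the highest model is the same in both libraries, and in Star, Akr1c18 and Eef2 it lies at 3, 4 and 6 missing exons.

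Chromaffin cell genes carried 15 models in 8 genes, 7 of them among the 12 listed genes with at least 20 reads (58.3%). Over all genes of that depth the share was 7.90%, and it was 67.6% with 500 or more reads in the shallower library. Chga, Chgb and Th lie above 500 reads in both libraries, and no comparison at like depth was made. Chgb, chromogranin B, had 89 of 1263 and 143 of 2916 reads on a 2-exon model that lacks 3 of 5 exons but keeps 90.6% of the coding bases. Chga, chromogranin A, had 5 models, of which the 2-exon model had 30 of 1916 and 62 of 3799 reads and the 7-exon model 23 and 68. The 7-exon model began 899 bases before the host exon in replicate 1 and at its boundary in replicate 2. Th had 2 models with 6 and 6 reads and with 6 and 5. Dbh, which makes noradrenaline, had 8 of 103 and 14 of 166, and Npy, a co-released peptide, 10 of 201 and 28 of 350. Cholesterol synthesis genes carried 10 models in 5 of 25 genes, and 5 of the 10 were of Dhcr7. Fdps, of the isoprenoid branch point, had 2 that kept the start codon, with 21 and 62 reads and with 13 and 52.

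Ribosomal proteins carried 25 models in 19 of 75 genes (25.3%). Rps21 had a 2-exon model with 22 of 110 and 39 of 163 and Rpl6 a 6-exon model with 39 of 286 and 63 of 541. Ribosomal protein genes have many processed copies in the genome, so these counts are uncertain. Translation factors carried 23 models in 9 of 27 genes (33.3%). Of the 23 models, 14 began at an annotated transcript start in both libraries, against 35.0% of all 489 models. Eef2 had 9 of the 23 and Eef1a1 had 6, so the 14 are not independent. Each of these 2 genes had more than 500 reads in both libraries. Over all genes of that depth 67.6% carried a model, and translation factors were not compared with genes of like depth. Respiratory chain and ATP synthase genes carried 12 in 8 of 30 genes. Atp5b, the catalytic beta subunit, had 172 of 1115 and 193 of 1657 reads on a 2-exon model that lacks 8 of 10 exons and keeps 13.6% of the coding bases. Glycolysis and citric acid cycle genes carried 18 in 8 of 38 genes, chaperones 15 in 5 of 33, lysosomal genes 8 in 5 of 29, cytoskeletal genes 6 in 4 of 18 and splicing factors 4 in 3 of 33. Of 10 regulators with known alternative promoters and at least 20 reads, 4 carried a model. Prkar1a, the regulatory subunit of protein kinase A, had 45 of 277 and 45 of 432 reads on a model that began 33 bases from a RefSeq start and kept the coding region. Gnas, which encodes a G protein alpha subunit, had 35 of 770 and 68 of 1278, with annotated starts 936 bases apart in the 2 libraries. Imprinted genes carried 2 models in 2 of 7 genes, Gnas again and Cdkn1c, a cell cycle inhibitor, with 31 of 594 and 29 of 1070.

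Among other highly read models, Ndufs7, of complex I, had 80 of 185 and 118 of 323 reads on a 2-exon model that lacks 6 of 8 exons. Hao2, a peroxisomal oxidase, had 150 of 297 and 175 of 364 reads on a 5-exon model. Pink1, a mitochondrial quality-control kinase, had 71 of 183 and 129 of 325 on a 5-exon model. Dgat2, which makes triglycerides, had 71 of 696 and 160 of 1095 on a 7-exon model that began 280 bases before the host exon at an annotated start. Adh1, an alcohol dehydrogenase, had 60 of 2356 and 100 of 3657 on an 8-exon model whose starts lay 2062 bases apart.

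The coding region was followed in the 476 models with a host that has an annotated start codon. The model began upstream of it in both libraries, with its exon kept, in 96 (20.2%). The share was 34.6% of 162 at annotated starts and 15.6% of 199 at exon boundaries, and the median of coding bases kept over all 476 was 74.2% and 74.1%. For the 380 models that did not keep it, the next ATG in the same frame of the host within the kept exons would leave a median of 53.1% of the codons at the start of replicate 1. It would leave at least 90% in 20 models and under 50% in 166, and 19 had no further ATG in frame. An exon that counts as missing is not kept here, even where the model's first exon reaches into it. Models of that form, such as Oaz1, Pgls and Rps15, are therefore among the 380, although they may cover the start codon. Without the models that reach the preceding exon, 19.5% kept the start codon. For the 4-exon model of Star the next ATG skips 110 of 284 codons, for the 5-exon model of Akr1c18 150 of 323 and for the 4-exon model of Nr5a1 87 of 462. These are positions in the annotated sequence, and no file measures translation.

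The share of the gene's reads was compared between the libraries with Fisher's exact test, two-sided, and Benjamini-Hochberg adjustment over all 5370 spliced models tested, each with at least 5 reads in both libraries in a gene with at least 20. It compares 2 libraries, not conditions. Over all models 19 passed an adjusted p of 0.05 (0.354%), and of the 460 suffix models 2 did (0.435%), a share near the background. Both had a higher share in replicate 1. At an unadjusted p under 0.05 there were 39 of the 460 suffix models, and 330 of the 5370 over all models. Cyp11a1, the side-chain cleavage enzyme that begins steroid synthesis, had 321 of 11136 reads (2.88%) in replicate 1 and 208 of 17191 (1.21%) in replicate 2 on its 6-exon model (Fisher's exact test, adjusted p = 8.8e-20). Its start lay 902 bases before the host exon in replicate 1 and 7 bases inside it in replicate 2. Ndufa4, a respiratory chain subunit, had 227 of 537 (42.3%) and 296 of 1007 (29.4%) on its 2-exon model (Fisher's exact test, adjusted p = 0.00032), with the same start in both. On simulated counts with 200 of the 5370 models changed 3-fold in odds, the test recovered 17% of the changed models and so missed most of them. The changed models were drawn from all classes, and 4390 of the 5370 are annotated transcripts. How often a change of that size would be detected in suffix models alone was not measured.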

How the data were processed

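Per the file headers, the authors' deposited tables hold counts, that is whole reads per transcript model, 1 table for each library, and list models with at least 1 read. The deposited annotations give exon positions in mm10 over GENCODE M21. Per the file headers, the columns of novelty classes have the form that TALON writes; the aligner and the versions of programs are not given in the sources used here. Replicates 1 and 2 hold 426150 and 770041 reads, and intervals are 95% Wilson intervals. Those over reads cover counting error only, and those over models take the models as independent.

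Suffix models were matched between libraries by gene and intron chain and compared with GENCODE M21 exons, and host sequence came from its transcripts. RefSeq windows (GRCm38.p6) gave further starts. A start on an annotated position is ranked as transcript start, then host exon boundary, then other exon start, then exon end. Shares were tested by Fisher's exact test (scipy 1.17.1, Benjamini-Hochberg adjustment), checked on simulated data. The members, gene lists and tests were chosen with earlier results of these data known. Named models are the 20 with the highest smaller count, the 12 with the highest smaller share in genes of at least 20 reads, the 10 reaching farthest before the host exon with starts within 50 bases, the 8 lacking most exons, those past the test and those of the lists; Fdft1, Hmgcs1 and others of the lists are given as counts. A few further models (Itm2c, Gm45713, Psmb5, Hcfc1r1, Banf1, Atp6v0b, Bpifb6, Lcp1 and the 7 without a host) were named after their values were seen. The models of 1 gene that the rule names are not reported here. The alternatives tried change the read minimum, the host, the distances, the denominator and the test. Spike-in controls and models of other classes were not analysed here beyond the comparisons given.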

Additional observations from a re-analysis of the deposited data

How the results depend on the processing

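Every alternative was a recount of the same deposited models, and those that leave out models reaching the preceding host exon, or genes under 20 reads, were chosen after seeing the data. The number of models was 489; it was 939 with at least 3 reads in each library, 197 with at least 10, and 596 to 1138 with 5 reads asked of 1 library alone. The share lacking 1 exon (40.7%) was 46.3% against the host with the fewest missing exons and 35.3% against the one with the most. Starts within 50 bases (80.4%) were 83.8% in models with at least 10 reads. Starts before the host exon (25.9%) were 30.1% to 31.5% from 1 library alone and 14.6% without the models that reach the preceding exon. Starts within 100 bases of an annotated start (33.3%) were 27.1% without those models. For this measure the start of a host that begins on the same base as the model was left out. The median share of the gene's reads over both libraries (5.21%) was 5.49% over spliced models, 6.73% over the model and annotated transcripts, 4.49% in genes of at least 20 reads and 4.72% to 5.05% in 1 library. The test of shares called Cyp11a1 and Ndufa4, 2 models, under each of its 4 alternatives, with adjusted p for Ndufa4 from 0.00017 to 0.00046 by Fisher's exact test and 0.00032 by the chi-square test. No paired analysis was possible because the labels give 1 group. Limits: 2 libraries that may come from 1 animal, starts that coincide with annotated positions, a smaller count of 5 to 9 reads in 292 of the 489 models, and no record of the reads' own ends.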
